A study of Mus musculus with 10 samples.

Results

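Cadherins are calcium-dependent adhesion proteins that join neighbouring cells, and 10 of their genes are described here: Cdh1, Cdh2, Cdh3, Cdh4, Cdh5, Cdh6, Cdh11, Cdh13, Cdh15 and Cdh26. They were picked by gene name from a table of 23358 gene rows. Each name stood on 1 row. The cells were MC3T3, a mouse calvarial pre-osteoblast line, grown in both arms in osteogenic medium (ascorbic acid plus beta glycerol phosphate). One arm received vehicle and the other 5 µM GSK126, an inhibitor of EZH2, which is the enzyme of Polycomb repressive complex 2 that writes the repressive histone mark H3K27me3. Dosing began with differentiation, was repeated 3 days later and ended on day 6. RNA was sequenced once per treatment on days 3, 6 and 10, which gave 6 libraries, and H3K27me3 with its input DNA once per treatment 24 hours after the first dose, which gave 4. The day 10 GSK126 cells had therefore been without compound since day 6. A cell line stands for 1 source of cells, and there was 1 library per treatment and day. The p-values of the RNA fits below therefore rest on how the treatment difference varied between days in these libraries, mixed with noise. They do not measure a spread between replicates, and the 3 pairs are 3 different days.

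Classical (type I) and type II cadherins share a layout of extracellular repeats, a membrane span and a tail that binds beta-catenin and p120 catenin, which link them to actin. Cells sort and layer by which cadherins they carry, and many cadherins mark a lineage. In osteoblasts the main members are Cdh2 (N-cadherin, type I) and Cdh11 (OB-cadherin, type II), while Cdh1 (E-cadherin) marks epithelia, Cdh3 (P-cadherin) placenta and basal epithelia, Cdh5 (VE-cadherin) endothelium and Cdh15 (M-cadherin) skeletal muscle. Cdh4 (R-cadherin) and Cdh6 (K-cadherin) are known from nervous system and kidney. The other two fall outside the classical and type II groups: Cdh13 (T-cadherin) is held in the membrane by a lipid anchor and has no catenin-binding tail, and Cdh26 is a divergent cadherin studied mainly in inflamed epithelia.

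RefSeq promoter windows on GRCm38.p6, the patched form of mm10, were matched for 3 of the 10 members. All 3 are shown, and no window was available for the other members. Cdh26 was expressed, was lower with GSK126 and had no H3K27me3 island. Cdh15, a muscle gene, was near 0 and had a vehicle island at its start. Cdh6 was at 0 and had a vehicle island only inside its body. Each window runs 5′ to 3′ from 250 bases before to 50 bases after the start, and capitals mark CpG pairs.
Cdh26 promoter, chr2:178430265-178430564, plus strand: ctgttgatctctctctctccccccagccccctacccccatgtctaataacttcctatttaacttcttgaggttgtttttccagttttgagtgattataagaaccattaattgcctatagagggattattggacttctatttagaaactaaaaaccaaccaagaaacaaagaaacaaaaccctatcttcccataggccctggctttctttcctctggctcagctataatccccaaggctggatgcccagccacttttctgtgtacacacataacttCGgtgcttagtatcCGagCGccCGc
Cdh15 promoter, chr8:122848124-122848423, plus strand: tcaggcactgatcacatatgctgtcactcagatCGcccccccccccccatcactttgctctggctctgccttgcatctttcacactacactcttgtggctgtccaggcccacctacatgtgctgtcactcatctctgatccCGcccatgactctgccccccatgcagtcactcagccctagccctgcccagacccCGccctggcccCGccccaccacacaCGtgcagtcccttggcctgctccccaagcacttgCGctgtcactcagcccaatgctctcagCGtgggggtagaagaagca
Cdh6 promoter, chr15:13173626-13173925, minus strand: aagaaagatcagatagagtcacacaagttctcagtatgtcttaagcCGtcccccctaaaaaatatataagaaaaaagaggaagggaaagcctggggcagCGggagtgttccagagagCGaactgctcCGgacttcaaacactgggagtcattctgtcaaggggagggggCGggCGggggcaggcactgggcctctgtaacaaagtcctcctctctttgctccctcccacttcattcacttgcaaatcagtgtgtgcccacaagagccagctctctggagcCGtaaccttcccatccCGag
The windows held 4, 7 and 8 CpG pairs, against a median of 7 over 32851 windows of the same length. The E-box CACCTG, the motif known as a target of the Snail and Zeb repressors, and its other-strand form CAGGTG were absent from these letters in all 3 windows, and 20.2% of all windows held at least 1.

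The members lie on 4 chromosomes of the mouse build mm10, and 6 of the 10 are on chromosome 8. Cdh3 (chr8:106510891-106556908) and Cdh1 (chr8:106603368-106670246) are neighbours 46.5 kb apart. Cdh11 (chr8:102632995-102785111), Cdh5 (chr8:104101625-104144502), Cdh13 (chr8:118283755-119323448) and Cdh15 (chr8:122848374-122867397) are spread along the same chromosome. Cdh26 (chr2:178430607-178487366) lies 955 kb below Cdh4 (chr2:179442478-179899375). Cdh6 is at chr15:13034200-13173639 and Cdh2 at chr18:16588877-16809049. These are the gene spans of the deposited table, and no other counted row overlapped any of the 10. RefSeq lists no gene overlapping Cdh1, Cdh2, Cdh3, Cdh11, Cdh15 or Cdh26.

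The 10 genes fell into 3 that were expressed and 7 that were near or at 0. Per length, in deposited RPKM (a read count scaled by coding length and library size), Cdh11 led with a median of 143.9 over the 6 libraries (range 114.5 to 166.5), above 98.9% of all rows. Cdh2 came next with a median of 26.6 (12.9 to 29.3) and Cdh26 with 4.05 (1.05 to 7.30). The ranges of these 3 did not overlap each other or the next gene. Cdh11 made up 78.8% to 87.3% of the summed RPKM of the 10 members, Cdh2 8.16% to 20.2% and Cdh26 0.694% to 4.61%.

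**Figure D1:**
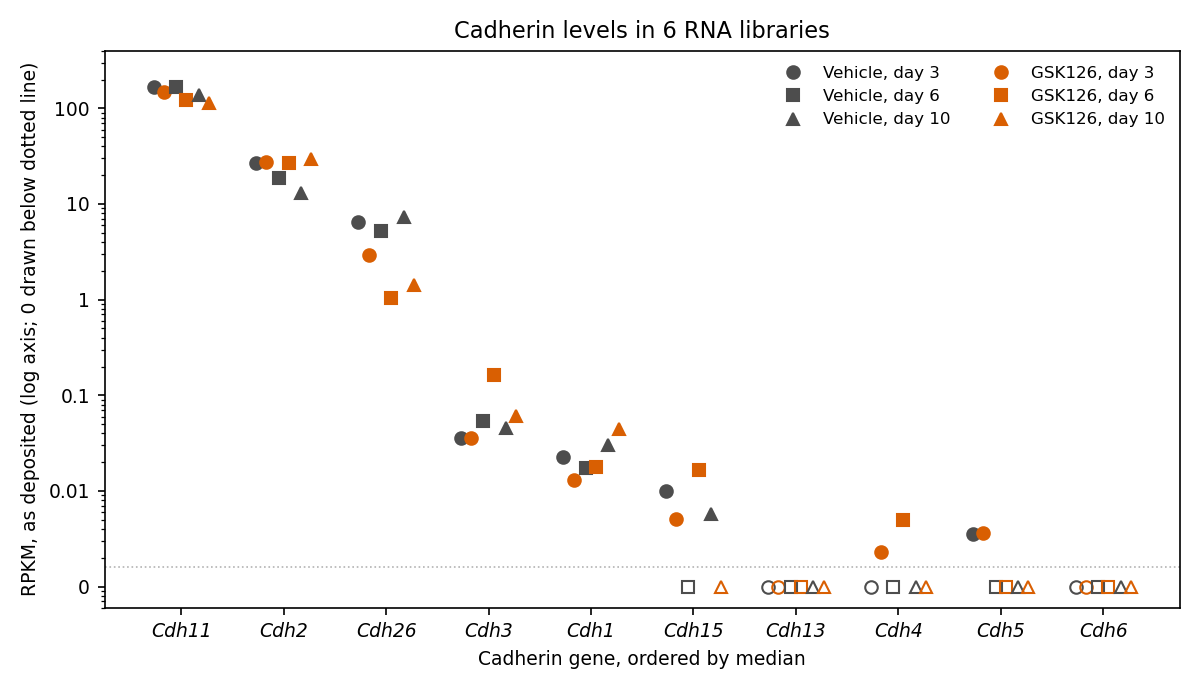
Deposited RPKM of the 10 cadherins in each of the 6 RNA libraries, on a log axis with values of 0 drawn as open symbols below the dotted line. Cdh11, Cdh2 and Cdh26 stand clear of the other 7 genes, whose highest value is 0.162 RPKM.

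The lineage cadherins stayed at the bottom of the scale under both treatments. On days 3, 6 and 10, vehicle libraries held 20, 28 and 22 counts of Cdh3 and GSK126 libraries 20, 82 and 30. For Cdh1 the counts were 14, 10 and 16 against 8, 10 and 24. The RPKM ranges of Cdh3 (0.0355 to 0.162) and Cdh1 (0.0131 to 0.0442) overlapped. Vehicle held 4, 0 and 2 counts of Cdh15 and GSK126 2, 6 and 0. Cdh5 had 2 counts in each day 3 library and 0 in the other 4 libraries. Cdh4 had 0 in all vehicle libraries and 2, 4 and 0 with GSK126, and Cdh6 and Cdh13 had 0 in all 6. Every count in the table was even, so 1 fragment enters as 2 counts, and a library at 0 allows up to 3 fragments, which is 0.0520 to 0.0636 CPM (counts scaled by TMM-adjusted library size). At this depth, 97291878 to 111537936 counts per library, differences among the 5 lowest genes (Cdh15, Cdh4, Cdh5, Cdh6 and Cdh13) were not detectable.

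Markers of the matching lineages were read beside these cadherins. Of 10 epithelial markers, 3 (Krt18, Cldn3 and Ocln) were at 0 everywhere and none passed the filter on low counts. Their summed RPKM was 0.0615 to 0.118 in vehicle and 0.0701 to 0.0925 with GSK126, with Cldn7 and Krt8, the most abundant, at no more than 18 counts. Of 8 myogenic markers the regulators Myod1 and Myf5 were at 0, and the sum of 4.81 to 5.89 in vehicle and 5.20 to 6.34 with GSK126 was mostly Pax3 (median 3.83 RPKM) and Des (1.31). Of 9 endothelial markers Kdr was at 0 and Flt1 (median 5.85 RPKM) made up most of the sum of 5.33 to 7.21 in vehicle and 4.47 to 9.07 with GSK126. Of the 4 tested endothelial and 3 tested myogenic markers edgeR and limma-voom called 0, with 1 in each list at an unadjusted p below 0.05 (Vwf and Des), and DESeq2 called Vwf. Over all 14344 genes tested for GSK126, 2813 had an unadjusted p below 0.05, DESeq2 called 1323 and limma-voom 257. The osteoblast markers, by contrast, summed to between 9649 and 11463 RPKM in vehicle and between 9728 and 13597 with GSK126. That sum was mostly Col1a1 (median 5282 RPKM) and Col1a2 (5046). Neither passed for GSK126 (log2 0.16 and 0.09, edgeR adjusted p = 0.662 and 0.819). Of the 9 osteoblast markers, Bglap, Ibsp and Pth1r rose with GSK126 by edgeR and 0 fell, against 1.28% of all genes called in either direction. DESeq2 called 6 of the 9 and limma-voom 4. Of 3 tested neuronal markers Tubb3 rose, and the list's summed RPKM was 2.94 to 11.1 in vehicle and 6.36 to 49.3 with GSK126. That sum was mostly Tubb3 itself (2.75 to 49.1 RPKM). Syp stood at log2 -0.38 (edgeR adjusted p = 0.701) and Snap25, with 12 counts or fewer, at 3.01 (edgeR adjusted p = 0.198). The part of these marker levels in the cadherin results was not tested. In bulk RNA, fewer cells of a type and less RNA per cell cannot be told apart.

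The central comparison asks which cadherin transcripts differ between inhibitor and vehicle in culture that is turning osteogenic. Of the 10 members, 5 had enough counts to be tested, among them Cdh1, which dropped out when counts were divided by 2. Of these members, 1 passed: Cdh26 was lower with GSK126. Vehicle libraries of days 3, 6 and 10 held 2634, 1952 and 2556 counts of Cdh26, and GSK126 libraries 1176, 384 and 508. The lowest vehicle library lay above the highest GSK126 library, so the groups did not overlap. The share of all genes whose groups lay apart was not counted, here or for the genes below. Averaged over the 3 pairs, Cdh26 fell by 1.91 on the log2 scale, or 3.75-fold (SE 0.26, 95% interval -2.55 to -1.26, n = 3 pairs, edgeR quasi-likelihood adjusted p = 0.0434). Among 14344 genes tested, 0.272% were called lower and 1.28% were called in either direction. The call is close to the threshold of 0.05 and was lost when either later pair was left out. Without the day 6 pair the edgeR adjusted p was 0.148 (log2 -1.71), and without the day 10 pair it was 0.18 (log2 -1.70). Calls over all genes also fell, from 184 to 19 without the day 6 pair and to 4 without the day 10 pair.

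Within single days the Cdh26 difference was present from the earliest library. On day 3 it was 2.21-fold lower with GSK126 (log2 ratio -1.14, 95% exact binomial interval -1.29 to -1.003 for counting error only), a day on which 0.162% of genes with a CPM of 1 or more were at least 2-fold lower. On day 6 it was 4.89-fold lower (log2 -2.29, interval -2.53 to -2.07), and 2.06% of genes were at least 2-fold lower. On day 10, with the compound gone since day 6, it was again 4.89-fold lower (log2 -2.29, interval -2.49 to -2.10), and 2.44% of genes were. The level with GSK126 moved from 3.88 CPM on day 6 to 5.39 on day 10, while vehicle stood at 19.0 and 26.4. The difference on day 10 against that on days 3 and 6 was -0.59 (SE 0.51, edgeR adjusted p = 0.806). All day 10 GSK126 RNA came from cells after removal, so removal and time in culture cannot be told apart.

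**Figure D2:**
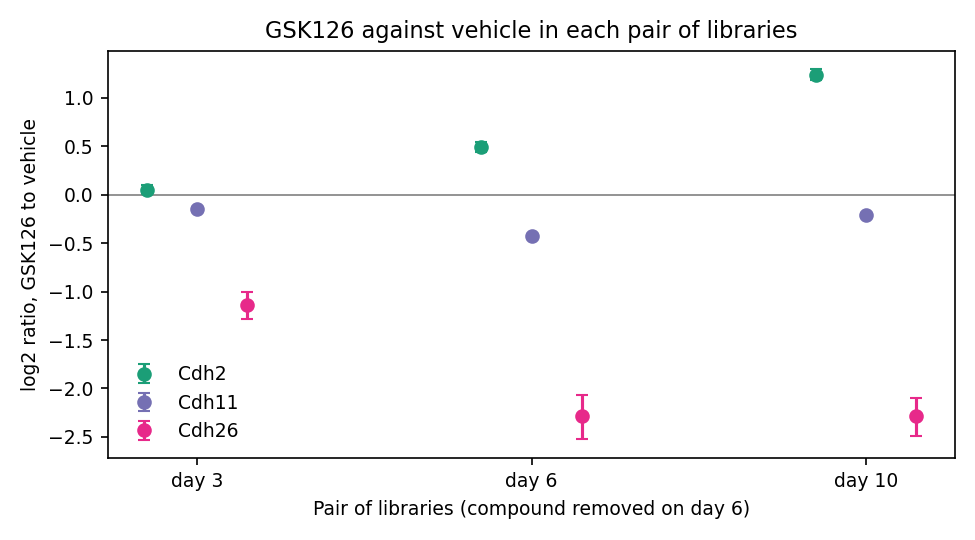
Log2 ratio of GSK126 to vehicle (TMM-normalized CPM, prior count 2) for the 3 expressed cadherins in each pair of libraries, with 95% exact binomial intervals that cover counting error only (smaller than the symbol where not visible). Cdh26 lies at -1.14, -2.29 and -2.29, Cdh11 between -0.43 and -0.15, and Cdh2 at 0.05, 0.49 and 1.24.

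Cdh2, the N-cadherin of osteoblast precursors, stood at 17474, 11486 and 7270 counts in the vehicle libraries and at 17904, 15592 and 16726 in those with GSK126. Vehicle libraries were lower on each later day, whereas the 3 GSK126 libraries lay close together, and on day 3 the treatments were near each other. In CPM, vehicle stood at 151.3, 112.0 and 75.1 and GSK126 at 157.1, 157.5 and 177.4. The ratio was 1.04-fold on day 3 (log2 0.05, interval 0.01 to 0.10), 1.41-fold on day 6 (log2 0.49, 0.44 to 0.54) and 2.36-fold on day 10 (log2 1.24, 1.18 to 1.30), when 3.07% of genes were at least 2-fold higher. Over all days the difference of 0.59 (SE 0.22, 95% interval 0.04 to 1.15) did not pass across all genes (edgeR adjusted p = 0.233). The extra difference on day 10 was 0.97 (SE 0.23, 95% interval 0.34 to 1.59), with an unadjusted p of 0.0116 from a fit with 1 residual degree of freedom, and an edgeR adjusted p = 0.704. That term called 0% of 14344 genes by edgeR, with 1006 at an unadjusted p below 0.05. Of the 5 tested members 0 were called by edgeR, DESeq2 or limma-voom, and 1, Cdh2, had an unadjusted p below 0.05.

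Cdh11, the most abundant member, reached 98336, 91890 and 70526 counts under vehicle and 87506, 65910 and 59310 under GSK126. It was lower with GSK126 on each day, although the vehicle value of day 10 lay below the GSK126 value of day 3, so the groups overlapped. The ratios were log2 -0.15, -0.43 and -0.21, which is 1.11-fold, 1.35-fold and 1.16-fold lower. The fitted difference of -0.26 (SE 0.09, 95% interval -0.49 to -0.03) did not pass (edgeR adjusted p = 0.212). For the sparse Cdh3, whose day 6 GSK126 library of 82 counts stands apart from 20 to 30 in the other 5, the difference was 0.76 (SE 0.42, edgeR adjusted p = 0.396), and for Cdh1 0.02 (SE 0.48, edgeR adjusted p = 0.987).

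Cdh2 and Cdh11, the osteoblast pair, were also read against each other within each library. The Cdh2 to Cdh11 ratio of RPKM was 0.161, 0.113 and 0.0935 in vehicle on days 3, 6 and 10, and 0.186, 0.215 and 0.256 with GSK126. All GSK126 values lay above all vehicle values. The within-day log2 differences of the ratio were 0.20, 0.92 and 1.45 (mean 0.86 ± 0.63, SD, n = 3 pairs). An exact two-sided sign-flip permutation over 3 pairs gave p = 0.25, the smallest value it can give.

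**Figure D3:**
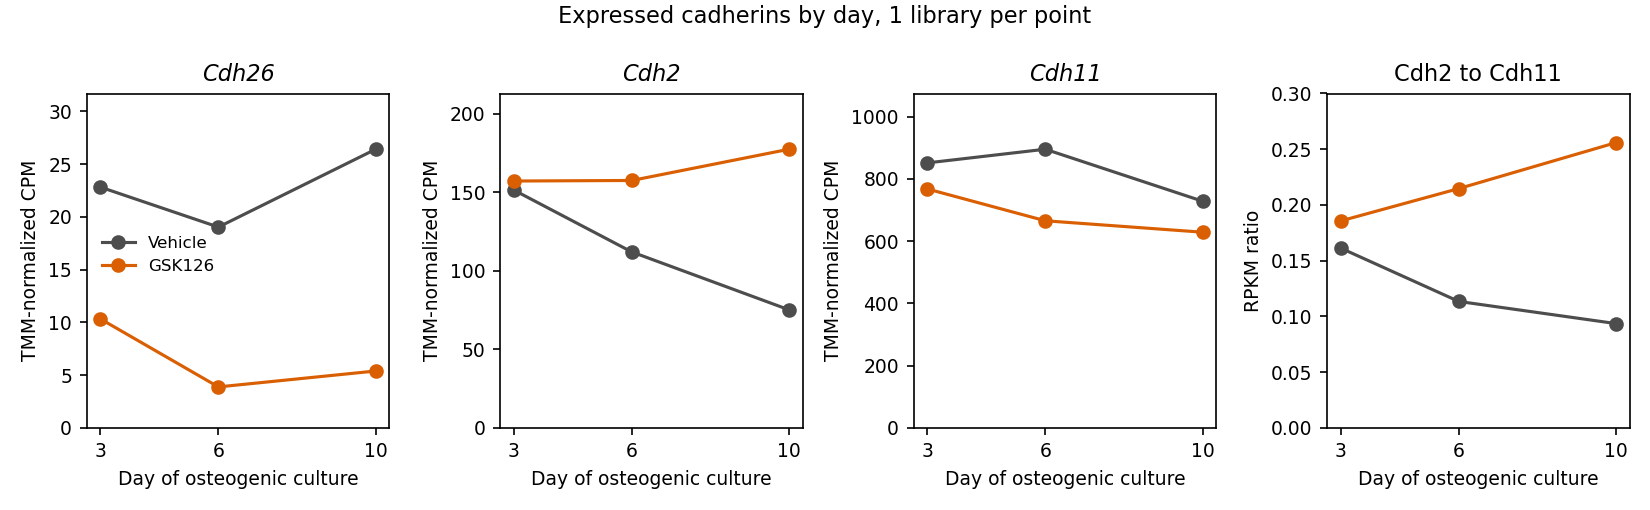
TMM-normalized CPM of Cdh26, Cdh2 and Cdh11 by day, and the ratio of Cdh2 to Cdh11 RPKM (right), with 1 library per point and lines joining libraries of 1 treatment. Cdh26 lies lower with GSK126 on all days, and Cdh2 separates from 151.3 and 157.1 on day 3 to 75.1 and 177.4 on day 10.

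Over culture time, averaged over both treatments, no member passed. Between days 3 and 10, edgeR, DESeq2 and limma-voom called 0 of the 5 tested members, against 26.6% of all genes called by edgeR. By edgeR 0 members had an unadjusted p below 0.05, against 6118 of 14344 genes. The fitted differences were -0.41 for Cdh2 (SE 0.27), -0.26 for Cdh11 (SE 0.11) and -0.39 for Cdh26 (SE 0.30). Within single arms the values lay further apart. Cdh2 in vehicle was 2.01-fold lower on day 10 than on day 3 (log2 -1.01, interval -1.07 to -0.95, when 3.25% of genes were at least 2-fold lower), against log2 0.17 with GSK126. Cdh26 with GSK126 was 2.65-fold lower on day 6 than on day 3 (log2 -1.41, interval -1.65 to -1.17, when 4.52% of genes were), against log2 -0.26 in vehicle. Between days 3 and 6, edgeR called 0 members, against 0.753% of all genes, and limma-voom called 0. Unadjusted p was below 0.05 for 2 of the members, Cdh3 and Cdh26, and DESeq2 called 1, Cdh26 (log2 -0.86, DESeq2 adjusted p = 0.0459). Over all 14344 genes, 3761 had an unadjusted p below 0.05 and DESeq2 called 1742.

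H3K27me3 was compared over the gene spans, since it is the mark whose writer the compound inhibits. None of the 3 expressed cadherins had an island in either list, and 5 of the 7 near or at 0 had at least 1 in vehicle. An island is a stretch that the SICER program calls enriched in ChIP over input reads, and the fold given with it is the authors' ratio for that island. Of the 10 members, 5 had an island in vehicle (Cdh4, Cdh13, Cdh15, Cdh6 and Cdh1) and 3 with GSK126 (Cdh4, Cdh13 and Cdh15). The order of these counts depended on the threshold: with islands at an adjusted p below 1e-8 alone, 1 member (Cdh4) had one in vehicle and 3 with GSK126, whose islands were longer and held more reads. Over all 23358 rows, 17.1% had an island in vehicle and 14.8% with GSK126, and among rows with spans of 100 kb or more the shares were 30.1% and 29.2%. Among rows tested in the RNA fit 9.20% had a vehicle island and 7.76% a GSK126 island, and 0 of 3 expressed members does not stand apart from those shares. Among rows at 0 in all RNA libraries the shares were 20.1% and 18.6%. The lists are of 1 ChIP library each and the islands differ in kind: vehicle had 34498 with a median length of 3.4 kb and fold of 2.48, and GSK126 24947 with 5.6 kb and 2.04.

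Cdh4 carried the most islands. In vehicle 14 islands covered 10.8% of its 456.9 kb, with folds of 1.98 to 3.82, and with GSK126 7 islands covered 9.50%, with folds of 1.77 to 2.91. Over the spans of all rows, islands covered 3.20% in vehicle and 3.46% with GSK126. The positions were mostly not the same: 3 of the 14 vehicle islands were overlapped by a GSK126 island by at least 1 base.

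Cdh15, the M-cadherin gene, was the 1 member with an island at its start among the 3 whose start is known here. In vehicle 3 islands covered 38.9% of its 19.0 kb. The first, chr8:122848400-122850799, began just inside the gene span. It held 30 ChIP and 20 input reads (fold 2.52, SICER adjusted p = 4.03e-06 in the authors' deposited list) and covered the last 23 bases of the promoter window printed above. The GSK126 list had 1 island, near the far end, at chr8:122863600-122866799 with 56 ChIP and 32 input reads (fold 2.91), overlapping the vehicle island there. Cdh15 RNA stayed at 0 to 6 counts in both arms on every day.

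Cdh13 had 5 islands in vehicle and 3 with GSK126, which covered 1.45% and 1.33% of its span of 1040 kb, below the share over all rows, and most lay near the upper end. Cdh6 had 1 vehicle island, chr15:13095200-13097999 (31 ChIP and 19 input reads, fold 2.74), inside the gene body and away from the promoter window, and Cdh1 had 1, chr8:106663000-106665799 (31 ChIP and 31 input reads, fold 1.68, the lowest of the 24 vehicle islands of the members). The GSK126 list had no island in either gene. With 1 ChIP library per treatment, presence in 1 list and absence in the other was not tested.

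**Figure D4:**
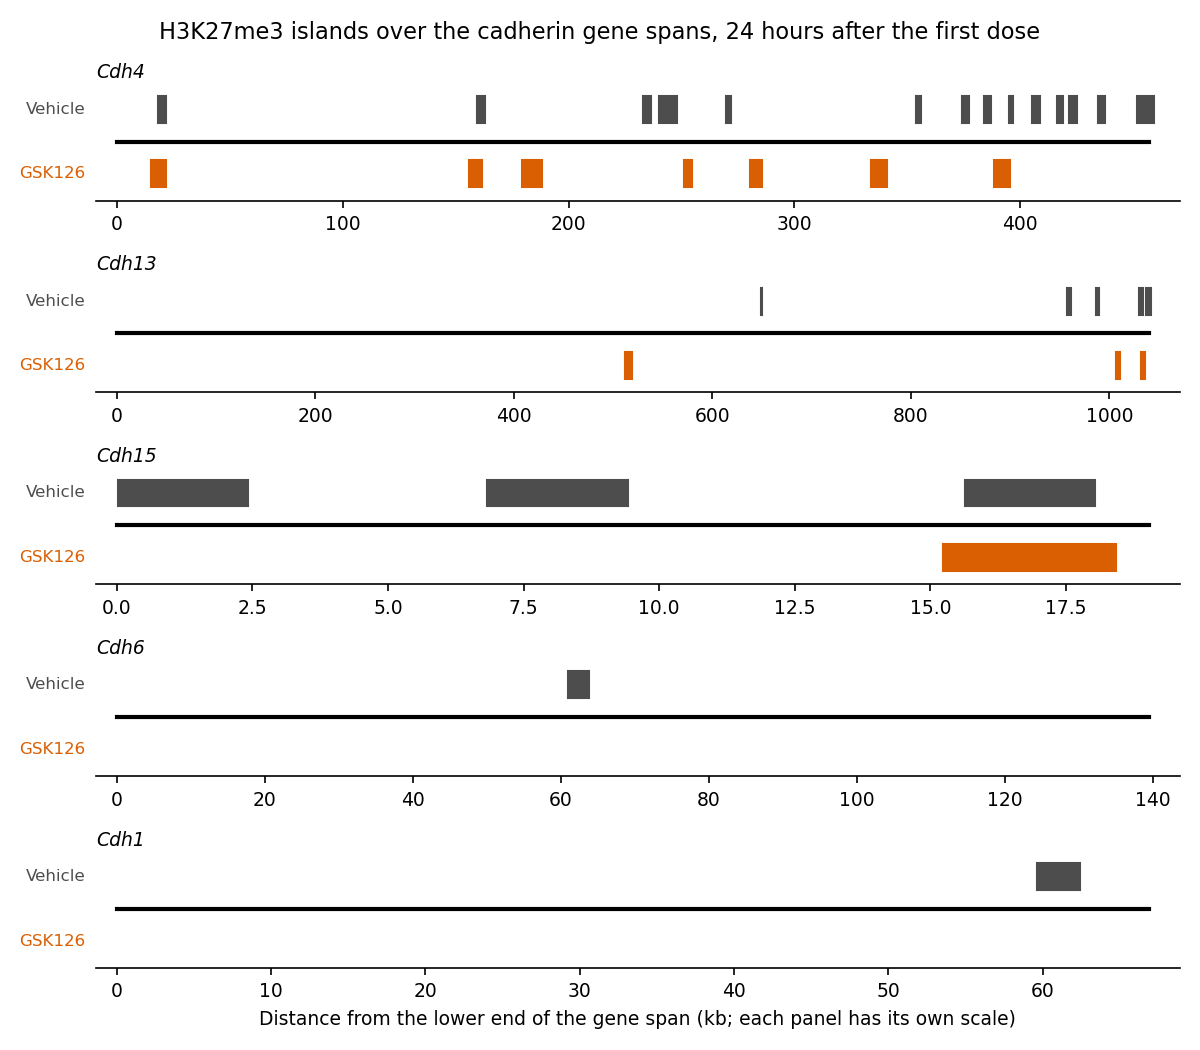
H3K27me3 islands over the spans of the 5 cadherins that had any, as distance in kb from the lower end of the span, with vehicle above and GSK126 below the line. Cdh4 has 14 and 7 islands, Cdh13 5 and 3, Cdh15 3 and 1, and Cdh6 and Cdh1 1 and 0.

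For the members with no island, the nearest lay outside the gene. Around Cdh26 it was 56.4 kb away in vehicle and 57.0 kb with GSK126, on the same side and overlapping in position. Around Cdh11 it was 14.2 kb below the gene in vehicle, at chr8:102615800-102618799 with 35 ChIP and 10 input reads (fold 5.88), and 38.0 kb with GSK126. Around Cdh2 the distances were 37.2 and 57.7 kb and around Cdh3 50.9 kb in both. Cdh5, the endothelial member, had an island 3.43 kb below its span in vehicle and 11.9 kb above it with GSK126.

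The proteins that anchor cadherins inside the cell were examined next. Of 19 catenins and junction partners, 16 were tested and 0 rose or fell by edgeR, with a median log2 difference of -0.03 against -0.00076 over all genes. Unadjusted p was below 0.05 for 5, DESeq2 called 1 (Lima1) and limma-voom 0. Over all 14344 genes these numbers were 2813, 1323 and 257. Beta-catenin, Ctnnb1, which binds cadherin tails and also carries Wnt signals, had 0.19 (SE 0.10, edgeR adjusted p = 0.346), and Vcl, vinculin, which reinforces junctions under tension, 0.05 (SE 0.13, edgeR adjusted p = 0.878). Between days 3 and 10, 3 of the 16 rose and 4 fell by edgeR, against 26.6% of all genes called in either direction on that contrast. Ctnnb1 was among those that rose (log2 0.44, SE 0.12, edgeR adjusted p = 0.0458).

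The 8 repressors of cadherin genes, transcription factors known for silencing Cdh1 in epithelial-mesenchymal transition, all passed the filter on low counts. By edgeR 0 of them passed for GSK126, 7 of 8 differences were negative and the median was -0.16, against -0.00076 over all genes. Unadjusted p was below 0.05 for 2, Zeb1 and Tcf4, and DESeq2 called both, while limma-voom called 0. Over all 14344 genes, 2813 had an unadjusted p below 0.05, DESeq2 called 1323 and limma-voom 257. Zeb1 stood at -0.61 (SE 0.13, edgeR adjusted p = 0.0912), with 16526, 15790 and 9928 counts under vehicle against 13670, 8124 and 6132. Tcf4 stood at -0.35, Snai2 at -0.18, Tcf3 at -0.17, Twist1 at -0.14, Snai1 at -0.14, Zeb2 at -0.13 and Twist2 at 0.41. Over the same libraries Cdh1 remained at 24 counts or fewer.

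Among 12 proteases that mature or shed cadherins, 11 were tested and 1 passed by edgeR, against 1.28% of all genes. DESeq2 and limma-voom also called 1, against 1323 and 257 of 14344 genes. Pcsk6, a proprotein convertase of the furin family, stood at 2060, 3010 and 3348 counts under vehicle and 4274, 8064 and 11706 under GSK126, and rose by 1.46 (SE 0.15, edgeR adjusted p = 0.0268). The groups did not overlap. The list median was -0.03.

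Of 13 further cadherins, 5 were tested and 0 passed by edgeR, with 1 at an unadjusted p below 0.05 and 1 called by DESeq2, both Cdh17, and 0 by limma-voom. Over all 14344 genes, 2813 had an unadjusted p below 0.05 and DESeq2 called 1323. The list median was -0.22. Cdh17, known from liver and intestine, was the most abundant, with 830, 646 and 718 counts under vehicle against 554, 406 and 382 (log2 -0.68, SE 0.13, edgeR adjusted p = 0.0737), and its groups did not overlap. Cdh24 stood at -0.22 (SE 0.16). Of the 9 desmosomal cadherins 5 were at 0 in all libraries and only Dsg2 was tested, with 4 to 24 counts (log2 -0.75, SE 0.58, edgeR adjusted p = 0.545). DESeq2 and limma-voom also called 0 desmosomal genes, and 0 had an unadjusted p below 0.05.

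The genes whose levels ran most like those of an expressed cadherin over the 6 libraries were taken by Pearson correlation of log2 CPM among 11017 genes, as a description of 6 points that share treatment and day. For Cdh26 they were Hexim2 (r = 0.997), Ndrg3 (0.995) and Rabl2 (0.993), with GSK126 differences of -0.34, -0.47 and -0.29, smaller than that of Cdh26. For Cdh2 they were Wdr3 (0.992), Slc30a4 (0.986) and Nat10 (0.984), and for Cdh11 the protocadherin gene Pcdhgc3 (0.995), Ndst2 (0.993) and Pi4kb (0.990). Correlations above 0.9 were found for 277, 123 and 393 genes.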

How the data were processed

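Gene counts were deposited by the authors as whole numbers per gene without normalization, and RPKM values were deposited beside them, scaled by the authors to coding length and library, per the file headers and the values. Per island, the deposited lists give reads of ChIP and of input, a fold ratio, a p-value and its adjusted form, in the layout SICER writes. They reach an adjusted p of 1, with 33586 of 34498 vehicle and 24207 of 24947 GSK126 islands below 0.01. The submitters' processing notes name TopHat2 2.0.6, HTSeq 0.5.3p9, BWA 0.5.9, SICER 1.1 and mm10; for counting mode and island settings, none is given in the sources used here. The RNA kit named in the labels does not mark strand.

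Counts were fitted over all genes with the quasi-likelihood test of edgeR 4.0.16 (R 4.3.3; TMM scaling, filterByExpr on treatment, Benjamini-Hochberg adjustment) with day and treatment as additive terms, which leaves 2 residual degrees of freedom. A second fit added treatment on day 10. The SE is the absolute difference divided by the square root of F. Pairs of libraries were compared as log2 CPM ratios with prior count 2. Their binomial intervals used fragments, which are counts divided by 2, while the fits used the counts as deposited. Islands were assigned to a gene by an overlap of 1 base or more. DESeq2 1.42.0 and limma 3.58.1 were alternatives, and the fit was tested on simulated data. Members, lists and tests were chosen with earlier results of these data known. All 10 members were named; from each list, up to 4 genes past the test, otherwise the 2 most abundant, and all repressors. Protein sequences were not used here.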

Additional observations from a re-analysis of the deposited data

Results flagged for a closer look

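In 4 cases a cadherin moved in opposite directions over the same days in the 2 arms. Both counting intervals left out 0, but they cover counting error only and are narrow for abundant genes. The cases were sought among the members alone, and how many of all genes do the same was not counted. With 1 library per arm and day these differences were not tested as such. Cdh2 had a log2 ratio of -1.01 from day 3 to day 10 in vehicle and 0.17 with GSK126, and from day 6 to day 10 of -0.58 and 0.17. Cdh26 had 0.21 in vehicle and -0.94 with GSK126 from day 3 to day 10. Cdh11 had 0.073 in vehicle and -0.21 with GSK126 from day 3 to day 6. A related test, of the treatment difference on day 10 against days 3 and 6 together, gave an edgeR adjusted p of 0.704 for Cdh2 and 0.806 for Cdh26. It does not address the Cdh11 case, which lies between days 3 and 6.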

How the results depend on the processing

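The lower level of Cdh26 with GSK126 kept its direction in 9 of 9 alternative fits (log2 -2.29 to -1.70) and passed in 6, with adjusted p between 1.12e-11 and 0.39. In the fit with counts divided by 2, Cdh26 passed (log2 -1.89, edgeR adjusted p = 0.0467) and Cdh1 was not tested. That fit called 165 of 13497 genes. Leaving out 1 day in turn gave 0 to 1 member called: 1 without day 3, and 0 without day 6 or day 10. A fit with no day term, in other words no replicate block of same-day libraries, called 0 members (Cdh26 log2 -1.80, edgeR adjusted p = 0.39) and 0 of all genes. The labels number no replicates, so day is the only pairing. For day 6 against day 3, DESeq2 called 1 member. Over the 9 alternatives Cdh2 stood between 0.27 and 0.87 and Cdh11 between -0.31 and -0.18 for GSK126, with 0 calls. Between days 3 and 10, Cdh26 ranged from -0.94 to 0.21 and Cdh2 from -0.90 to 0.06, with 0 calls in 11 alternatives. Calls over all genes varied more: for GSK126, 184 against 1323 (635 lower) with DESeq2, 308 without day 3, 19 without day 6 and 4 without day 10. For day 6 against day 3 they were 108 (34 lower) against 1742 with DESeq2, 150 (74 lower) by library size and 7 to 803 without 1 library. For day 10 against day 3 they were 3819 (1793 lower) against 4128 (2644 lower) by library size and 70 to 3447 without 1 library, and for the day 10 term 0 against 22 with DESeq2. Requiring an adjusted p below 1e-8 left 1 member with a vehicle island (Cdh4) and 3 with GSK126, and a fold of 3 or more left 1 (Cdh4) and 0. A window of 2 kb on either side of the start, possible for 3 members, gave 1 (Cdh15) and 0. An adjusted p below 0.01, chosen after seeing the data, and a requirement of 50% of the island inside the span kept 5 and 3. Depth limits the 5 lowest genes.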
